A study of Mus musculus with 6 samples.

Results

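The 10 genes described here encode enzymes and a channel of glycerol 3-phosphate supply and triglyceride synthesis. They were Pck1, Gpd1, Aqp7, Gk, Gpam, Agpat2, Lpin1, Dgat1, Dgat2 and Mogat2, chosen by gene symbol from the 16538 genes listed, and all 10 were found, Gk under its older symbol Gyk. RNA-Seq was performed on inguinal white adipose tissue (iWAT) of 3 control and 3 AKO samples, each of RNA pooled from 2 mice of the same genotype. Per the labels, all mice spent 10 days at 8°C, and the paper's text gives a slightly longer stay. The control mice are labelled wt and are called fl/fl littermates in the paper. The AKO mice carried the floxed Nrg4 alleles with an Adiponectin-Cre driver, a cross meant to inactivate the gene in adipocytes of all depots and to leave it intact in other cells. Mice were fed chow, and their ages and sex were not given in the sources used here. No samples from warm-housed mice were analysed here, so each value is a level in cold-acclimated fat and each difference is one between genotypes.

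Triglyceride is assembled on a glycerol 3-phosphate backbone by stepwise transfer of fatty acyl groups. Adipocytes obtain the backbone from glucose, from pyruvate and lactate through glyceroneogenesis, or from glycerol itself through glycerol kinase, an activity that is low in white and higher in brown and beige adipocytes. During cold exposure, lipolysis releases fatty acids and glycerol, and part of the fatty acid is esterified again in the same cell. The comparison of the groups addressed which of these steps differed in expression between control and AKO iWAT.

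The depth of the samples was similar, from 17570335 to 18373707 reads on the listed genes. Nrg4 had 3128, 3102 and 3092 normalized counts (reads divided by the authors' size factor) in control and 2577, 2627 and 2691 in AKO, a mean 1.18-fold lower. These counts sum all exons, the deleted part was not measured separately here, and they do not show by themselves how much intact Nrg4 transcript was left. The adipocyte markers were abundant in every sample, with Adipoq between 28174 and 36454 normalized counts, and 9 of the 10 were lower in AKO without a group separation for any of them. For each of 10 beige adipocyte markers, no AKO sample reached the lowest control sample. Their summed counts were 32161 to 46563 in control and 14466 to 18008 in AKO. In whole tissue, fewer beige adipocytes and less RNA per beige adipocyte cannot be told apart. The summed counts of 15 skeletal muscle markers ranged from 208 to 28812 in control and from 21247 to 124510 in AKO, with control replicate 1 the lowest and Myoz1 at 0 in it. Control replicate 1 and AKO replicate 2 had the most lymphocyte marker counts, 689 and 966, against 83.4 to 108 in the other samples. The 8 mammary epithelial markers listed summed to 21.5 to 1270 in control and 157 to 1663 in AKO, with Krt8, Krt14, Krt5 and Epcam at 0 in control replicate 2. The 9 macrophage markers summed to 10503 to 14819 in control and 13026 to 17769 in AKO, and all 9 had a higher mean log2 level in AKO. The 5 endothelial markers summed to 16519 to 18076 in control and 15383 to 17389 in AKO. The part of these other cell types in the results below was not tested.

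Of the 10 genes, Gk stood lowest in AKO iWAT relative to control, by 2.53-fold in the mean. Pck1, Gpd1 and Aqp7, the other genes of glycerol 3-phosphate supply, had means 1.32-fold, 1.27-fold and 1.19-fold lower in AKO. The 6 genes from Gpam to Mogat2, which encode acyltransferases and the phosphatase lipin 1, had overlapping groups. All 10 passed the filter on low values (a mean of at least 10 normalized counts). limma was run on log2(normalized count + 1), a scale that understates the change of low genes, and a gene was called at an adjusted p (Benjamini-Hochberg, over 13855 genes) under 0.05. By the sign of the log2 fold change, 6 of the 10 were lower in AKO and 4 higher, where 48.1% and 51.9% of all genes were. limma called none of the 10 genes in either direction, where it called 0.00722% of all genes as lower and 0.00722% as higher. Before adjustment, 4 of the 10 had a p under 0.05 with limma, all 4 lower in AKO, where 4.69% of all genes were lower and 4.41% higher by this rule. For these 4 genes, all 3 AKO samples lay below all 3 control samples, as was so for 8.31% of all genes tested, while none of the 10 was separated in the other direction, against 6.14% of all genes. DESeq2, run on the whole reads recovered from the table, called 1 of the 10, Gk, as lower, and none as higher, where it called 0.757% of all genes with an adjusted p as lower and 0.241% as higher. From the same reads, edgeR called none of the 10, where it called 0.00721% of all genes as lower and 0.0144% as higher, and it gave an unadjusted p under 0.05 for the 4 genes that limma did. The median log2 fold change was -0.11 over the 10 genes and 0.01 over all genes tested.

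**Figure D1:**
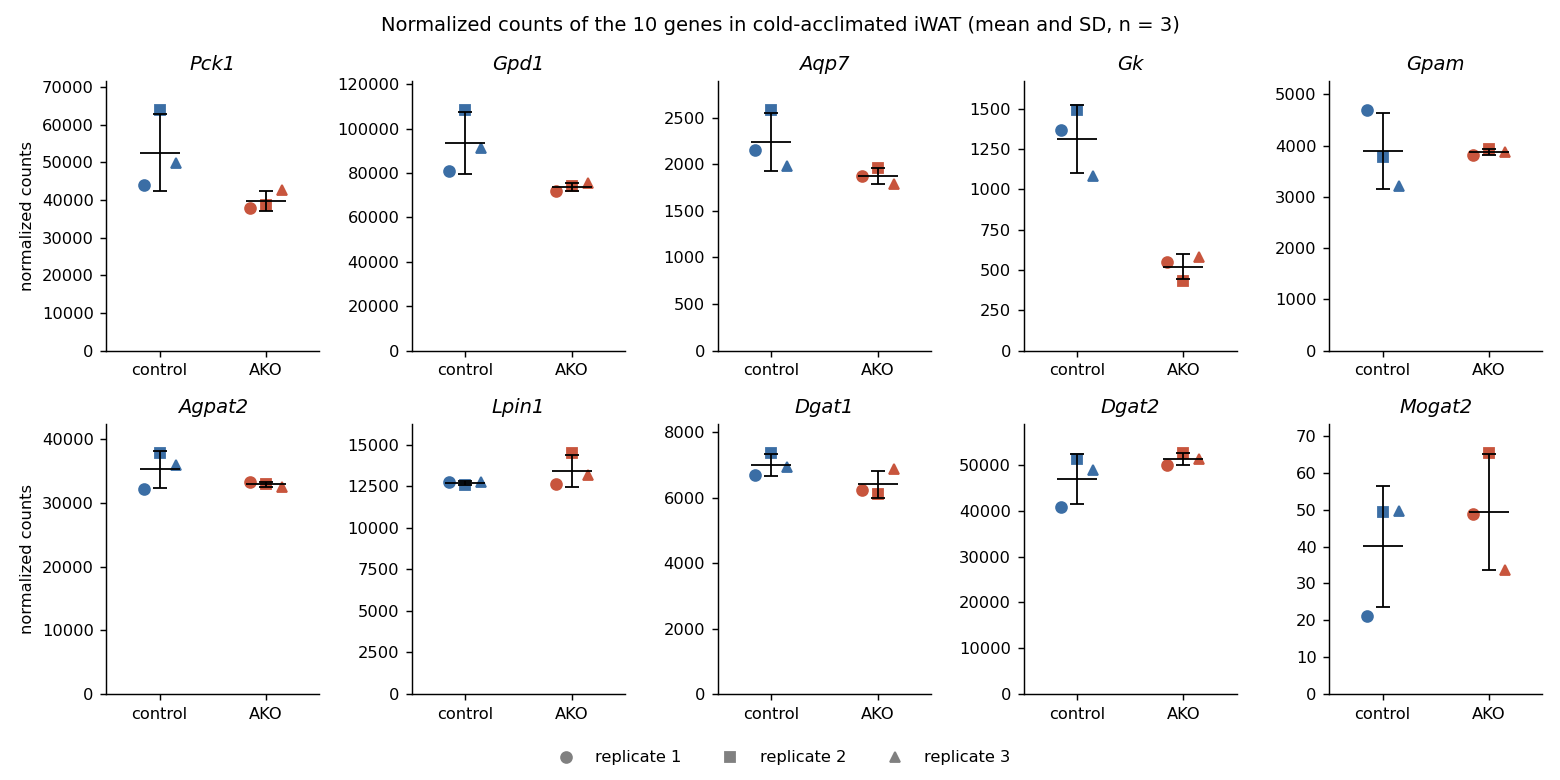
Normalized counts of the 10 genes (y axis, from 0, one scale per gene) in each control (blue) and AKO (red) sample, with the mean and SD of 3 samples in black and the replicate number as the symbol. Gk is between 431 and 577 in AKO and between 1082 and 1492 in control, while the groups of Gpam, Agpat2, Lpin1, Dgat1, Dgat2 and Mogat2 overlap.

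Gk encodes glycerol kinase, which phosphorylates glycerol and so lets an adipocyte reuse the glycerol that lipolysis sets free. The gene lies on the minus strand of chromosome X of GRCm38 from 85701937 to 85776819. Normalized counts of Gk were 1368, 1492 and 1082 in control and 549, 431 and 577 in AKO. The groups did not overlap, and the lowest control sample was 87.3% above the highest AKO sample. Control averaged 1314 ± 210 and AKO 519 ± 78.0 normalized counts (SD, n = 3 each). This gave a log2 fold change of -1.34 (standard error 0.15, 95% confidence interval -1.68 to -0.996), with a limma p of 1.88e-05 and adjusted p of 0.0651. This p was the 4th smallest of the 13855 genes. By DESeq2 the adjusted p was 1.92e-16, and by edgeR it was 0.0528. With limma restricted to genes with at least 10 normalized counts in every sample, Gk passed, with an adjusted p of 0.0246. When any 1 sample was left out, the limma log2 fold change of Gk was between -1.47 and -1.21. DESeq2 called Gk in 6 of 6 such fits and limma in none, with limma adjusted p-values from 0.0883 to 0.208. The 10 beige adipocyte markers, given here as context, had a median log2 fold change of -1.22, and Ucp1, the uncoupling protein of thermogenic fat, had -1.75. Of the Gk exon bases, 1.08% are shared with Gm14764 on the opposite strand, and the sources used here do not say whether counting used strand.

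Pck1 encodes the cytosolic phosphoenolpyruvate carboxykinase, the enzyme that commits pyruvate and lactate carbon to glyceroneogenesis. It lies on the plus strand of chromosome 2 from 173153048 to 173159273. Pck1 stood at 44001, 63931 and 49893 normalized counts in control and at 37792, 38719 and 42767 in AKO. The groups did not overlap, but the lowest control sample was only 2.88% above the highest AKO sample. Pck1 had a log2 fold change of -0.39 (standard error 0.14, 95% confidence interval -0.72 to -0.06), and its adjusted p was 0.505 with limma and 0.0654 with DESeq2. The spread was 10239 (SD, n = 3) around the control mean of 52608 and 2646 (SD, n = 3) around the AKO mean of 39760. Without control replicate 1, the log2 fold change was -0.51 from limma, and DESeq2 called Pck1 with an adjusted p of 0.00167. In the other 5 DESeq2 fits that left out 1 sample, Pck1 was not called, with adjusted p-values from 0.17 to 0.577, and with the replicate number as a block the DESeq2 adjusted p was 0.829.

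Gpd1 encodes the cytosolic glycerol 3-phosphate dehydrogenase, which reduces dihydroxyacetone phosphate to glycerol 3-phosphate whether the carbon came from glucose or through Pck1. The gene lies on the plus strand of chromosome 15 from 99717515 to 99725005. With 80954, 108426 and 91462 normalized counts in control and 71984, 74274 and 75523 in AKO, it held the 18th highest mean of all listed genes and the highest of the 10. The AKO samples lay close together and below all control samples. For Gpd1 the log2 fold change was -0.33 (standard error 0.13, 95% confidence interval -0.62 to -0.04), and the adjusted p was 0.515 with limma and 0.0652 with DESeq2. Without control replicate 1, the fold change was -0.43 from limma, and DESeq2 called Gpd1 with an adjusted p of 0.000344. In the other 5 such DESeq2 fits Gpd1 was not called, with adjusted p-values from 0.169 to 0.398, and with the replicate block DESeq2 called it (adjusted p = 0.0157). Of the Gpd1 exon bases, 12.97% are shared with Gm16537 on the opposite strand.

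Aqp7 encodes aquaglyceroporin 7, the channel through which glycerol crosses the adipocyte membrane. It lies on the minus strand of chromosome 4 from 41033074 to 41048139. Control samples had 2155, 2583 and 1979 normalized counts of Aqp7, and AKO samples had 1877, 1958 and 1792. The groups did not overlap, by a margin of 1.06% between the lowest control and the highest AKO sample. Aqp7 had a log2 fold change of -0.25 (standard error 0.10, 95% confidence interval -0.48 to -0.02), and its adjusted p was 0.527 with limma and 0.458 with DESeq2. Control replicate 2 was the highest of the 6 samples for Pck1, Gpd1, Gk and Aqp7, and also for Ucp1, at 25393 normalized counts. Without this sample, the limma log2 fold changes were -0.24 for Pck1, -0.22 for Gpd1 and -0.14 for Aqp7, closer to 0 than with all 6 samples.

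**Figure D2:**
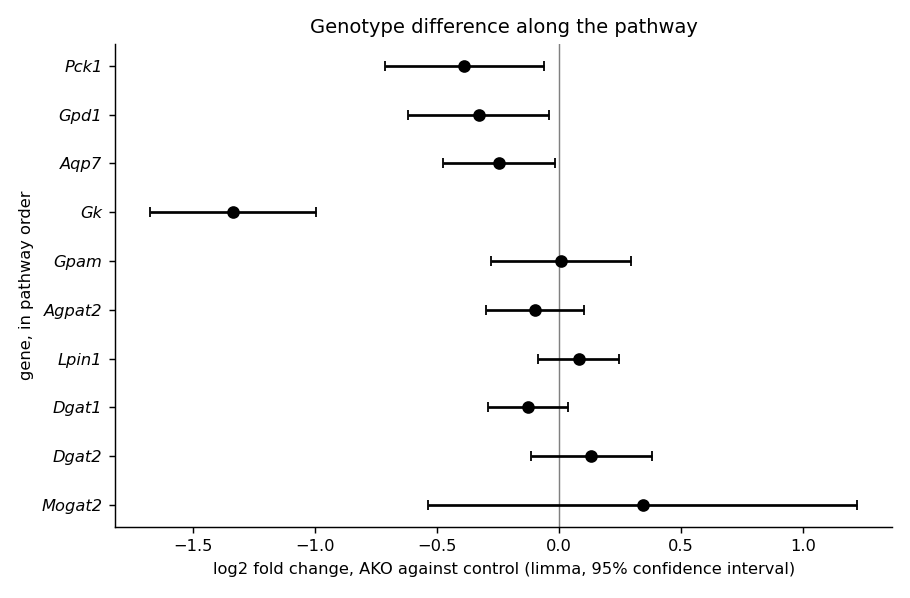
Log2 fold change of AKO against control (x axis) for the 10 genes in pathway order (y axis), with 95% confidence intervals from limma. The intervals of Pck1, Gpd1, Aqp7 and Gk lie below 0, that of Gk from -1.68 to -0.996, and those of the other 6 genes include 0.

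The promoters of Gk, Pck1 and Aqp7, whose AKO samples all lay below the control samples, are printed beside that of Gpam, whose groups overlapped. Neither limma nor DESeq2 called Pck1 or Aqp7 on all 6 samples. The sequences are given to show what stands at the start sites of these genes. Promoters of 6 of the 10 genes, in 8 windows of 250 bases before to 50 bases after a start site, were taken from RefSeq on GRCm38.p6, and those of Gpd1, Dgat1, Dgat2 and Mogat2 were not analysed here. The first 280 bases of a window are given 5′ to 3′, and capitals mark matches on either strand to ACGTCA (the core of the cAMP response element), AGGTCA (the core bound by nuclear receptors), CCAAT or TATAAA.
Gk, chrX:85776790-85777069, minus strand: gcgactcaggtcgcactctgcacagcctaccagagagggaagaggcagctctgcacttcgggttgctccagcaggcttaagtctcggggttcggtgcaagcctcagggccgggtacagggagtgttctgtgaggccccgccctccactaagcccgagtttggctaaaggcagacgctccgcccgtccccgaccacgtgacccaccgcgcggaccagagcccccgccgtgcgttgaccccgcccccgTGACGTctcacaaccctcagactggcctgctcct
Pck1, chr2:173152823-173153102, plus strand: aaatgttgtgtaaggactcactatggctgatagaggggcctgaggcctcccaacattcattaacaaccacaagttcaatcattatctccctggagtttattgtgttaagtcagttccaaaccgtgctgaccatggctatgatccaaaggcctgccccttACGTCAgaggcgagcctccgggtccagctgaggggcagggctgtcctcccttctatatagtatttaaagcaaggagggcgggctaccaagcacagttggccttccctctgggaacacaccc
Aqp7, chr4:41048107-41048386, minus strand: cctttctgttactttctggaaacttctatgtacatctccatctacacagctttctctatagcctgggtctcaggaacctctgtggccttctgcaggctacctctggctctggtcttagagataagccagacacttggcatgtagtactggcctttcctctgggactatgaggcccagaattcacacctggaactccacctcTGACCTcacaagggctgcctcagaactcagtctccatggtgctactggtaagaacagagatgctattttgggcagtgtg
Gpam, chr19:55127209-55127488, minus strand: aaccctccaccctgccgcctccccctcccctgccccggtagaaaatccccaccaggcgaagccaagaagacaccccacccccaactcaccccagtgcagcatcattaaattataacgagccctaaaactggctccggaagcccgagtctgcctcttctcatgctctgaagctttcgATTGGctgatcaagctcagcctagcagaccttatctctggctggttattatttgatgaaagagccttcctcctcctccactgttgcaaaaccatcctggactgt
The Gk and Pck1 windows each held 1 match to ACGTCA, which 7.5% of the 32841 promoter windows searched hold. In Pck1 the match began 91 bases before the start site, and in Gk it lay across the start site, from 4 bases before it, on the other strand. The Aqp7 window held a match to AGGTCA 49 bases before the start site on the other strand, where 16.3% of all windows hold at least 1. The second Aqp7 window shares sequence with the first, held this same site and had 1 more match. The Gpam window held a CCAAT match, as 37.4% of all windows do, and the other Gpam window held both ACGTCA and AGGTCA. The Lpin1 window held AGGTCA, and the Agpat2 window held none of the motifs. None of the 8 windows held TATAAA, which 13.6% of all windows do, and no matches to different motifs overlapped. The windows of Gk and Agpat2 had a GC content of 65.7% and 72.0%, with 23 and 26 CpG dinucleotides, against a median of 52.7% and 7 over all windows. The first Aqp7 window had 49.7% and 0, and that of Pck1 had 52.0% and 6. Such matches describe the letters of the windows and are not evidence of binding.

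Gpam encodes the mitochondrial glycerol 3-phosphate acyltransferase, which adds the first acyl chain. It lies on the minus strand of chromosome 19 from 55067268 to 55127238. The control samples had 4695, 3785 and 3215 normalized counts, a range that holds all 3 AKO samples, at 3814, 3937 and 3867. Its log2 fold change was 0.01 (95% confidence interval -0.28 to 0.29, adjusted p = 0.994 from limma), and its sign changed with single samples left out.

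Agpat2 encodes the acyltransferase that adds the second acyl chain in adipocytes and is mutated in a congenital lipodystrophy. It lies on the minus strand of chromosome 2 from 26593057 to 26604417. Agpat2 counted 32117, 37823 and 35999 in the controls against 33295, 32924 and 32533 in AKO (normalized counts). Control replicate 1 was the lowest of all 6 samples and the other control samples were above all AKO samples. Its log2 fold change was -0.10 (95% confidence interval -0.30 to 0.10, adjusted p = 0.795 from limma). The limma value was -0.16 without control replicate 1 and -0.05 without control replicate 2.

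Lpin1 encodes lipin 1, the phosphatase that turns phosphatidic acid into diacylglycerol and also acts as a transcriptional coactivator. It lies on the minus strand of chromosome 12 from 16535669 to 16610966. The control samples were close together at 12756, 12548 and 12766 normalized counts, and the AKO samples had 12623, 14496 and 13185. Its log2 fold change was 0.08 (95% confidence interval -0.09 to 0.25, adjusted p = 0.801 from limma). The limma value was 0.02 without AKO replicate 2 and 0.12 without AKO replicate 1.

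Dgat1 and Dgat2 encode unrelated enzymes that add the last acyl chain to make triglyceride. Dgat1 lies on the minus strand of chromosome 15 from 76502015 to 76511953 and had 6695, 7365 and 6942 normalized counts in control and 6229, 6117 and 6891 in AKO. One AKO sample, replicate 3, was above the lowest control sample, and the log2 fold change was -0.13 (95% confidence interval -0.29 to 0.04, adjusted p = 0.648 from limma). Dgat2 lies on the minus strand of chromosome 7 from 99153658 to 99182719. Normalized counts of Dgat2 were 40857, 51347 and 48959 in control and 49982, 52670 and 51415 in AKO, and the mean was higher in AKO by 9.14%. Control replicate 1 stood below the other 5 samples, and the log2 fold change of 0.13 (95% confidence interval -0.11 to 0.38, adjusted p = 0.771 from limma) was 0.03 without it.

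Mogat2 encodes a monoacylglycerol acyltransferase related to DGAT2 and best known from the intestine. It lies on the same strand of chromosome 7 as Dgat2, from 99219084 to 99238619, with 36364 bases between the genes. It was the only low gene of the 10, with 21.1, 49.5 and 49.8 normalized counts in control and 49.0, 65.4 and 33.7 in AKO. The SD of 16.5 around the control mean of 40.1 compares with 6.33 from counting error alone. The log2 fold change was 0.34 with a 95% confidence interval from -0.54 to 1.22 (adjusted p = 0.845 from limma) and was -0.06 without control replicate 1.

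Levels of different genes were compared as normalized counts per kb of exon (all exons of the gene merged, in GENCODE M21). On this scale, Gpd1 stood highest of the 10 in control with 31616 ± 4682 (SD, n = 3), followed by Agpat2 with 16579 ± 1368, Pck1 with 15342 ± 2986 and Dgat2 with 15263 ± 1783. The control ranges of Agpat2, Pck1 and Dgat2 overlapped on this scale. Then came Dgat1 (2291 ± 111), Lpin1 (1313 ± 12.7), Aqp7 (792 ± 110) and Gpam (585 ± 112), of which Aqp7 and Gpam overlapped. Gk, at 170 ± 27.2 per kb in control and 67.0 ± 10.1 in AKO, and Mogat2, at 21.9 ± 8.99 in control, were the lowest. In AKO, Pck1 had 11595 ± 772 and Dgat2 16658 ± 436 per kb, without overlap between these 2 genes.

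For most steps, 1 gene held most of the counts per kb of its enzyme family. In control, Pck1 held 99.7% of the counts per kb of Pck1 and Pck2, the mitochondrial form, and Aqp7 held 99.3% of those of Aqp3, Aqp7 and Aqp9. Gpd1 held 95.7% of those of Gpd1, Gpd1l and the mitochondrial Gpd2. Lpin1 held 93.4% of the lipins, Agpat2 held 89.4% of Agpat1 to Agpat5, and Dgat2 held 84.9% of the DGAT and MOGAT genes, beside 12.8% for Dgat1, 2.13% for Mogat1 and 0.119% for Mogat2. The first acylation was the exception, since Gpam held 25.1%, Gpat3 36.3% and Gpat4 38.5%. In AKO these shares were 27.3%, 37.5% and 35.2%, and the share of Dgat2 was 87.0%. Gk held 97.1% of the counts per kb of Gk and Gk5 in control and 93.2% in AKO, where Gk5 itself averaged 41.5 ± 15.8 and 41.2 ± 8.54 normalized counts (SD, n = 3 each).

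**Figure D3:**
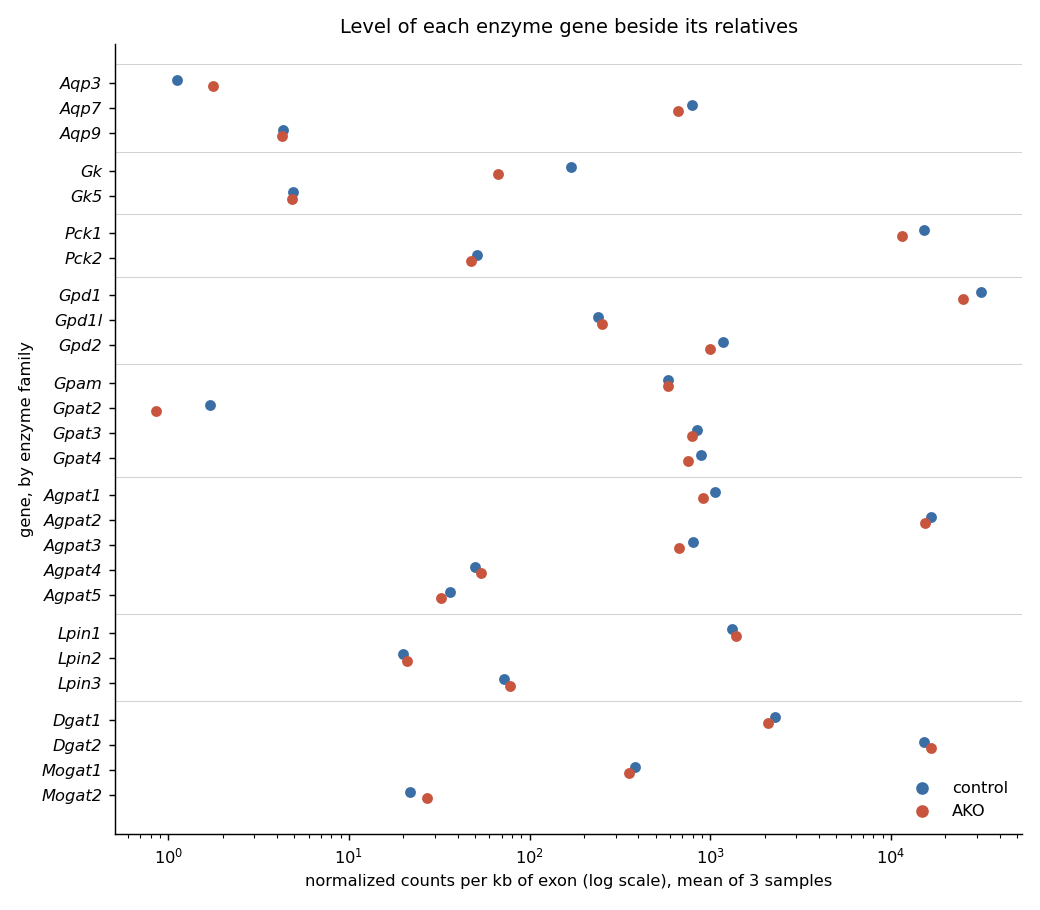
Mean normalized counts per kb of exon (x axis, log scale) of each gene of 8 enzyme families (y axis) in control (blue) and AKO (red), each point a mean of 3 samples. Gpd1, Pck1, Agpat2 and Dgat2 lie at 11595 or above in both groups, and Gk shows the widest gap between groups of the 10 genes, 170 against 67.0.

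The balance between steps was examined as the ratio of 2 genes within each sample, which does not depend on the size factors. There were 6 such ratios, each given with the p of an exact permutation test (2-sided, smallest possible p 0.1 at this sample size) and with p adjusted over the 6. The log2 ratio of Gk to Pck1, glycerol reuse against glyceroneogenesis, was -5.01, -5.42 and -5.53 in control and -6.10, -6.49 and -6.21 in AKO. The groups were apart, with a mean difference of -0.95 (exact permutation test, p = 0.1, adjusted p = 0.2). Pck1 thus had 40.4 normalized counts for each of Gk in control and 77.6 in AKO, as means of the samples. The log2 ratio of Gpd1 to Pck1 was 0.84 ± 0.07 (SD, n = 3) in control and 0.90 ± 0.07 in AKO, with overlapping groups (exact permutation test, p = 0.4, adjusted p = 0.4).

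Dgat2 had 6.10 to 7.05 normalized counts for each of Dgat1 in control and 7.46 to 8.61 in AKO, and the groups did not overlap. On the log2 scale the mean difference was 0.26 (exact permutation test, p = 0.1, adjusted p = 0.2). Against Pnpla2, the triglyceride lipase of the first step of lipolysis, Dgat2 had 0.398 to 0.491 normalized counts per count in control and 0.538 to 0.619 in AKO. The groups again did not overlap, with a mean difference of 0.35 on the log2 scale (exact permutation test, p = 0.1, adjusted p = 0.2). The ratios of Gpam to Pnpla2 (difference 0.22, exact permutation test, p = 0.3, adjusted p = 0.36) and of Pck1 to Lipe, hormone-sensitive lipase (difference -0.26, exact permutation test, p = 0.2, adjusted p = 0.3), had overlapping groups. Leaving out any 1 sample kept the difference of the Gk to Pck1 ratio between -1.05 and -0.79. That of Gpam to Pnpla2 was 0.37 without control replicate 1 and 0.09 without control replicate 3, and that of Pck1 to Lipe was -0.39 without control replicate 1 and -0.14 without control replicate 2.

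**Figure D4:**
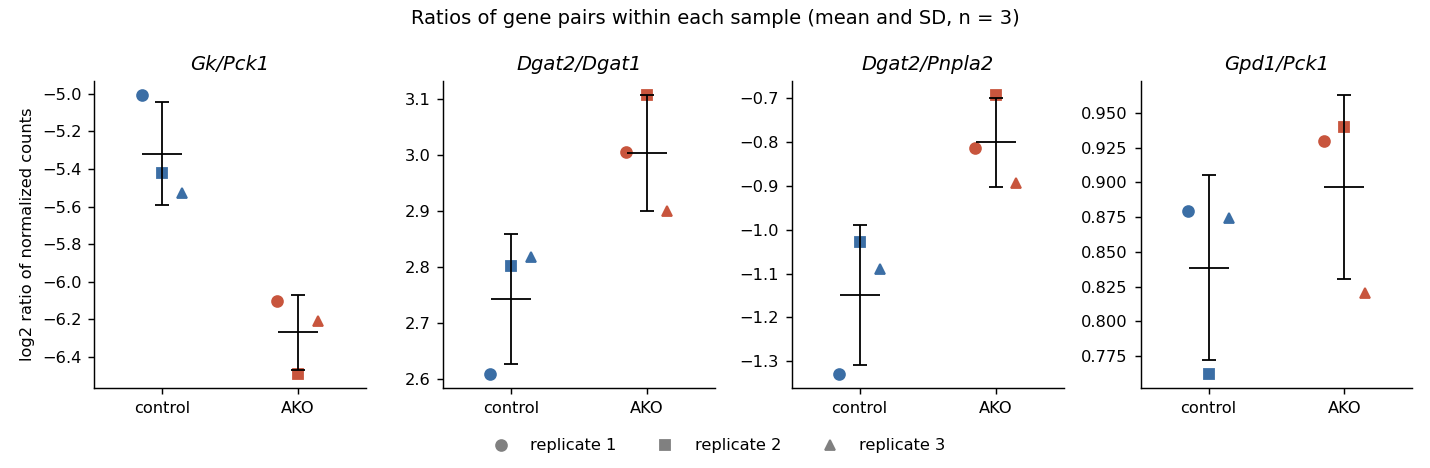
Log2 ratio of the normalized counts of 2 genes for 4 of the 6 ratios (y axis, one scale per panel, not from 0) in each control (blue) and AKO (red) sample, with the mean and SD of 3 samples. The groups are apart for Gk to Pck1 (means -5.32 and -6.27), Dgat2 to Dgat1 (2.743 and 3.003) and Dgat2 to Pnpla2 (-1.15 and -0.80), and overlap for Gpd1 to Pck1.

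Genes around the 10 were read from lists. Across all genes tested, 48.1% were lower in AKO and 51.9% higher. Of 14 tested genes of glycerol 3-phosphate supply, limma called none, 9 were lower and 5 higher in AKO, and the median log2 fold change was -0.02. The list also holds Gpd2 and Pgp, whose enzymes use up glycerol 3-phosphate, so its tally gives no direction of the supply. Pcx, pyruvate carboxylase, which makes the oxaloacetate that Pck1 uses, was the most abundant and averaged 36458 ± 5031 in control against 38559 ± 1737 normalized counts in AKO (SD, n = 3 each). Mdh2, mitochondrial malate dehydrogenase, had the smallest p of this list, with 10177, 13123 and 10508 normalized counts in control and 8758, 9354 and 9763 in AKO (log2 fold change -0.27, adjusted p = 0.522 from limma). Got1, the cytosolic aspartate aminotransferase, had the largest change, a log2 fold change of -0.40 with overlapping groups (adjusted p = 0.626 from limma).

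Of 14 tested acyltransferases and phosphatases related to the 10 genes, limma and DESeq2 called none, 9 were lower and 5 higher, and the median was -0.07. Agpat3, an acyltransferase of the AGPAT family, had 6004, 7000 and 5818 normalized counts in control and 5043, 5427 and 5215 in AKO (log2 fold change -0.26, adjusted p = 0.454 from limma), so that the groups did not overlap. Plpp3, a lipid phosphate phosphatase, had the largest change, 0.28, with overlapping groups (adjusted p = 0.539 from limma). Of 7 tested genes for lipin control and droplet formation, limma and DESeq2 called none, and 6 were lower, with a median of -0.10. Plin2, a coat protein of lipid droplets, had a log2 fold change of -0.14 (adjusted p = 0.817 from limma).

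Of 7 acyl-CoA synthetase genes, which activate fatty acids for esterification or oxidation, 6 were lower in AKO and limma called none, with a median of -0.06. Acsl1, the main form in adipocytes, averaged 101654 ± 3420 in control against 92996 ± 5151 normalized counts in AKO (SD, n = 3 each). Acsl5 had 1833, 2413 and 1974 in control and 1392, 1243 and 1460 in AKO, with no overlap. It was the 1 gene of this list that DESeq2 called (log2 fold change -0.60, adjusted p = 0.227 with limma and 0.000146 with DESeq2).

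Of 10 lipolysis genes, 8 were lower and 2 higher in AKO, limma and DESeq2 called none, and the median was -0.13. The list holds lipases together with inhibitors of lipolysis, so its tally gives no direction of lipolysis. Pnpla2 had 102695, 104633 and 104154 normalized counts in control and 87904, 85119 and 95513 in AKO, with no overlap (log2 fold change -0.22, adjusted p = 0.568 from limma and 0.130 from DESeq2). Ces1d, a carboxylesterase with lipase activity, had 22111, 20133 and 19678 in control and 16747, 14102 and 18390 in AKO (log2 fold change -0.34, adjusted p = 0.459 from limma and 0.0803 from DESeq2). Hilpda, an inhibitor of Pnpla2 found on lipid droplets, had the largest change, 0.39, with overlapping groups (adjusted p = 0.661 from limma).

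Of 12 transcription factors that act on the pathway, 6 were lower and 6 higher, limma called none, and the median was -0.02. Pparg, the nuclear receptor that drives adipocyte genes including Pck1, Gk and Aqp7, had 5859 normalized counts on average in control and 5609 in AKO (log2 fold change -0.06, adjusted p = 0.880 from limma). This gene was named after its values were seen. Cebpa, the most abundant, averaged 28549 ± 1755 in control against 26644 ± 409 in AKO (SD, n = 3 each). Esrra, an orphan nuclear receptor of mitochondrial genes, had the smallest p, with 1566, 1837 and 1491 in control and 1347, 1334 and 1255 in AKO (log2 fold change -0.31, adjusted p = 0.387 from limma). Cebpb had 1741, 2239 and 1778 in control and 1077, 1193 and 1656 in AKO, and was the 1 gene of this list called by DESeq2 (log2 fold change -0.57, adjusted p = 0.414 from limma and 0.0354 from DESeq2).

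**Figure D5:**
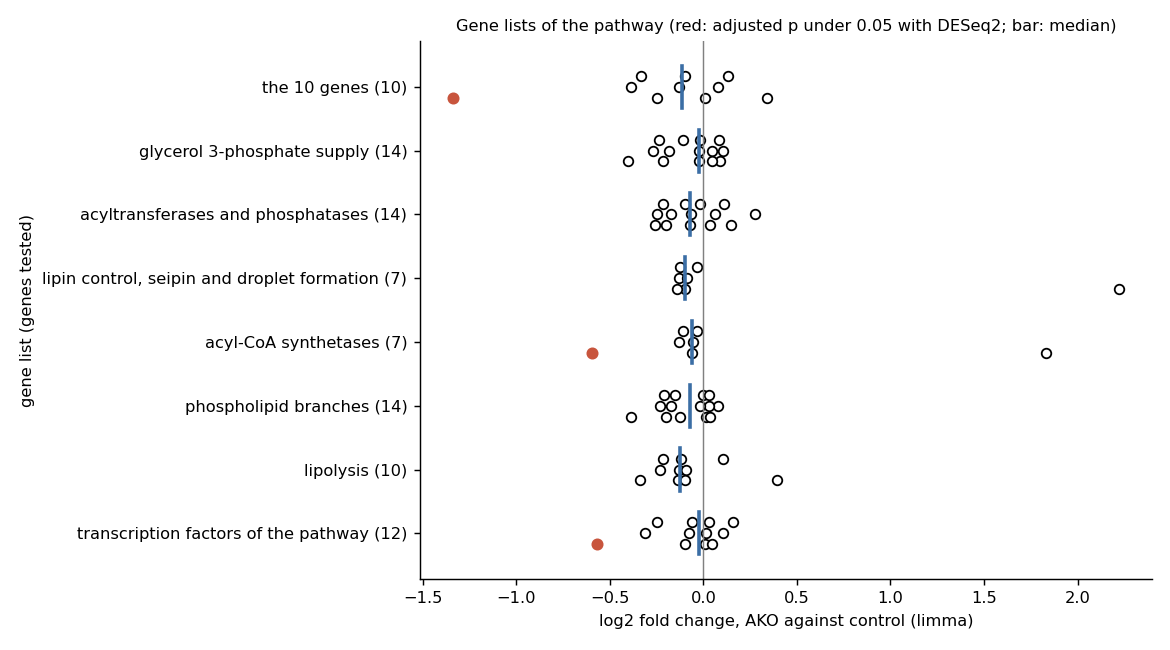
Log2 fold change of AKO against control from limma (x axis) for every tested gene of the 10 and of 7 lists around them (y axis, with the number tested); red points have an adjusted p under 0.05 with DESeq2, and the blue bar is the median of the list. Gk at -1.34, Acsl5 at -0.60 and Cebpb at -0.57 are the red points, and the list medians lie between -0.13 and -0.02.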

How the data were processed

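RNA-Seq of iWAT was performed by the authors on 3 control and 3 AKO samples. Per the paper's methods, the authors mapped reads to GRCm38.p6 with STAR, used featureCounts with GENCODE M25 and compared genotypes with DESeq2. The labels name mm10, FastQC, STAR and DESeq2. The deposited signal of a gene in a sample is its count of reads over the sample's DESeq2 size factor, with no correction for length. Columns of the authors' own comparison, their log2 fold changes and p-values, were not used. The filter on genes and the strand setting are not given in the sources used here.

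limma (version 3.58.1, R 4.3.3) was run with a variance trend on log2(value + 1) for 13855 genes with a mean of at least 10. Values were whole multiples of 1 read for 100% of the table (within 0.01 of a whole number), and those reads went into DESeq2 (version 1.42.0), limma-voom and edgeR (quasi-likelihood test, version 4.0.16). limma was the planned test for normalized values. Nothing says that the pools came from separate cohorts, and p-values measure the spread between these samples. No 2 samples of a group were alike within counting error (chi-square over degrees of freedom 10.4 to 21.2). limma, edgeR and DESeq2 were first tested on simulated data.

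The members and gene lists were chosen with earlier results of these data known. By rule, the genes named are the 10 members, Nrg4, Ucp1, Acta1 and the genes of the ratios. Of each list, those with the highest mean, the smallest p and the largest change are named too. Outside this rule, some cell type markers and relatives in the enzyme families are named. Pparg and Fitm2 were named after their values were seen. Symbols were matched through RefSeq synonyms, and positions and exon lengths are from GENCODE M21 on GRCm38. Counting error weighs most on genes with few reads, and the SD of Nrg4 in control (18.3) was below it (55.7). The alternatives were other pseudocounts and filters, the tests on recovered reads, TMM factors, a threshold of 0.1, a block for replicate number, and fits on 5 of the 6 samples. DESeq2 with samples left out or with a block was added after the data were seen.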

Additional observations from a re-analysis of the deposited data

How the results depend on the processing

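Gk kept its direction in all 23 alternatives, and Pck1, Gpd1, Aqp7, Agpat2, Lpin1, Dgat1 and Dgat2 did so too. Among these, the other filters, the threshold of 0.1 and the limma fit with a block left the log2 fold change as in the main fit. Those settings could not change a direction. Aqp7 and the 6 genes from Gpam to Mogat2 passed the threshold in none of the 23. The sign of Gpam changed with DESeq2 (-0.0096), without control replicate 2 (-0.0048), control replicate 3 (-0.1225) or AKO replicate 2 (-0.0042), and with DESeq2 without control replicate 2 (-0.0284), control replicate 3 (-0.1290), AKO replicate 1 (-0.0004), AKO replicate 2 (-0.0237) or AKO replicate 3 (-0.0082). That of Mogat2 changed without control replicate 1 (-0.0571, with DESeq2 -0.0122), and fits on 5 samples ranged up to 0.1506 for Gpam and 0.5854 for Mogat2. The cause was not tested. Of all genes, limma called 1 lower and 1 higher. The counts were 4 lower and 2 higher with at least 10 in every sample, 1 and 2 with edgeR, 113 and 36 with DESeq2, and 9 and 2 at a threshold of 0.1. Fits on 5 samples gave 0 to 2 lower and 0 to 1 higher with limma, and 56 to 152 lower and 9 to 83 higher with DESeq2. limma called 2 lower and 1 higher without control replicate 2 and none without any other sample. DESeq2 gave 56 lower without control replicate 2, 73, 69 and 71 lower without AKO replicates 1, 2 and 3, and 152 without control replicate 1, and 15 higher without control replicate 1, 83 without AKO replicate 1 and 9 without AKO replicate 3. Of the 10 genes, 1 was lower past the threshold with at least 10 in every sample, with DESeq2 and at 0.1 (Gk each time), and 1 to 3 with DESeq2 on 5 samples, with 3 only without control replicate 1. With the replicate number as a block, limma called 0 lower and 2 higher genes and none of the 10, and DESeq2 called 100 lower and 93 higher and 2 of the 10, Gk (adjusted p = 5.08e-12) and Gpd1 (0.0157). The deviations of same-numbered samples from their group means had correlations of 0.14, -0.35 and 0.24. With 3 samples per group, these values cannot show whether same-numbered samples share more than a number. DESeq2 called 1 acyl-CoA synthetase and 1 transcription factor gene, with the block also 1 lipolysis gene, and on 5 samples 0 to 1 supply, 0 to 1 acyltransferase, 1 synthetase, 0 to 2 lipolysis and 0 to 1 transcription factor genes, where limma called 0. Without division by length, shares in control and AKO were 30.3% and 33.2% for Gpam, 77.9% and 79.5% for Agpat2, 96.1% and 96.1% for Lpin1, 86.0% and 88.0% for Dgat2, 0.072% and 0.085% for Mogat2, 99.2% and 99.1% for Pck1 and 91.3% and 90.4% for Gpd1, and 99.1% for Aqp7 in control.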

Other observations

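The 2 genes around the pathway with the largest higher values in AKO were Fitm1 and Acsl6. Fitm1, a fat storage-inducing protein gene expressed in skeletal muscle, had 1.004, 23.7 and 17.3 normalized counts in control and 21.1, 52.7 and 76.2 in AKO, with overlapping groups (log2 fold change 2.22, adjusted p = 0.539 from limma). Acsl6, an acyl-CoA synthetase gene, had 1.004, 6.45 and 4.07 in control and 4.80, 21.5 and 25.1 in AKO (log2 fold change 1.83, adjusted p = 0.534 from limma). In both genes the order of the 6 samples was that of Acta1, skeletal muscle actin, which had 62.2, 6536 and 3498 in control and 4377, 15282 and 27039 in AKO. Fitm2, the relative of Fitm1 in adipose tissue, had 2300 normalized counts on average in control and 2103 in AKO (log2 fold change -0.13, adjusted p = 0.614 from limma). It was named after its values were seen.

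Of 14 genes of the phospholipid branches that leave the pathway at phosphatidic acid or diacylglycerol, 9 were lower and 5 higher in AKO, limma and DESeq2 called none, and the median log2 fold change was -0.07. Cds1, a CDP-diacylglycerol synthase that draws on phosphatidic acid, had 380, 423 and 353 normalized counts in control and 338, 279 and 269 in AKO, with no overlap (log2 fold change -0.39, adjusted p = 0.434 from limma). Chpt1, choline phosphotransferase, was the most abundant, with 22741, 24683 and 22695 in control and 21029, 20899 and 20180 in AKO (log2 fold change -0.17, adjusted p = 0.534 from limma).

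Together the 10 genes of glyceroneogenesis and triglyceride synthesis held 1.275% to 1.531% of all listed counts in control and 1.237% to 1.2996% in AKO.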
